A study of Homo sapiens with 12 samples.

Results

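The 9 genes described here code for S100 proteins: S100P, S100A2, S100A4, S100A6, S100A10, S100A11, S100A13, S100A14 and S100A16. They were picked by name out of 57736 genes in the deposited tables, and they were selected on their measured values in these libraries. Their levels, fold changes and counts of calls are therefore given below as a description, and no test of them is read as a result. The study asked how HME, an extract of the red seaweed Hypnea musciformis, acts on HepG2 liver hepatocellular carcinoma cells and on Ls174 colon cancer cells. Both lines were wild type by label. HME-treated cells were cultured with the extract for 24 h at 0.7 mg/ml by the labels' protocol, where the study's methods give a slightly higher concentration, and another label field calls the agent a microalgal extract at its IC50 concentration. Control cells of each line were labelled as not treated and sampled at the same 24 h time point, and no vehicle is named for them. Each of the 4 groups (HepG2 control, HepG2 HME, Ls174 control, Ls174 HME) had 3 libraries, which the study's methods call biological replicates. Each cell line is a single culture-adapted line, so differences between HepG2 and Ls174 cells are differences between these lines and cannot be told apart from differences between liver and colon cancer.

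S100 proteins are small proteins that bind calcium through paired EF-hand motifs and work mostly as dimers inside the cell, where calcium binding opens a surface for partner proteins such as annexins, ezrin, myosin and p53. Several of them are also released from cells and act as ligands of the receptor RAGE. Most human S100 genes lie in a cluster on the long arm of chromosome 1, and S100P lies by itself on chromosome 4; many of them are known for altered levels in tumours of the gut and liver.

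Promoter sequences are shown for the 4 genes whose levels differed most between HME and control libraries of a line without overlap and without resting on a single library, namely S100P, S100A6, S100A11 and S100A2. Each line holds the 250 bases before the annotated transcription start, 5′ to 3′ in the direction of the gene, from RefSeq on build GRCh38.p14, and capitals mark every match to a motif that was searched on both strands. The motifs were the TATA box (TATAAA), the AP-1 site (TGANTCA), the antioxidant response element core (TGACNNNGC), the GC box (GGGCGG) and the hypoxia response core (ACGTG).
S100P (chr4:6693628-6693877, plus strand): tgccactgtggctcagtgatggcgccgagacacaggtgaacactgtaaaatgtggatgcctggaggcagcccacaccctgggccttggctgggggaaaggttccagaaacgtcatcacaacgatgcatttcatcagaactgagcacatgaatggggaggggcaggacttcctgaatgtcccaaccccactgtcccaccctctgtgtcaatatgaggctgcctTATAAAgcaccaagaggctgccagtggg
S100A6 (chr1:153535992-153536241, minus strand): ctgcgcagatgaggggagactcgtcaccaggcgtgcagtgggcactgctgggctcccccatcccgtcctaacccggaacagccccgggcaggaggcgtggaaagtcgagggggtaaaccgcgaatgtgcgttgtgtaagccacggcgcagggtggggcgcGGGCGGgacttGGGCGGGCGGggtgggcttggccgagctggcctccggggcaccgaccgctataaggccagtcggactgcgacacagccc
S100A11 (chr1:152037005-152037254, minus strand): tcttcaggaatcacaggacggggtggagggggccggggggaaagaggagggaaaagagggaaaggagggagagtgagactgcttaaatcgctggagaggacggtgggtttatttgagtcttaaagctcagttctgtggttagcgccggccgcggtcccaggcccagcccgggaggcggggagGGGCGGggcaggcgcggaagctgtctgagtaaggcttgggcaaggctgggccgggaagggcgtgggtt
S100A2 (chr1:153565845-153566094, minus strand): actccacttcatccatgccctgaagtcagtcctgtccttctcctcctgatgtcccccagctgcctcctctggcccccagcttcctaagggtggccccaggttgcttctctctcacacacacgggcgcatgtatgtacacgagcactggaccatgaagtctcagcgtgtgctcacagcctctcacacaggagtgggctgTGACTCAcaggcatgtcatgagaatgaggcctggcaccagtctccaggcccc
The S100P window held a TATA box whose first base lies 28 bases before the start, and no GC box. The S100A6 window held 3 GC boxes, at 90, 79 and 75 bases before the start, the last 2 of which overlap, and the S100A11 window held 1 at 68 bases. The S100A2 window shown, 1 of 2 for this gene, held an AP-1 match at 52 bases, which reads as a match on both strands. The other S100A2 window (chr1:153563888-153564137) held no match to any of the motifs. RefSeq lists 13 such windows for the 9 genes, with 2 for S100A2, 3 for S100A13 and 2 for S100A16. A TATA box stood in 3 of the 13 windows (S100P, S100A4 and S100A13) and in 10.7% of 35116 promoter windows of the same length. A GC box stood in 5 of the 13 (S100A6, S100A10, S100A11, S100A13 and S100A16) and in 42.6% of all, the AP-1 match in 1 of the 13 and 6.57% of all, the antioxidant core in 2 of the 13 (S100A13 and S100A14) and 10.9%, and the hypoxia core in 1 (S100A16) and 18.5%. These matches describe letters in a window and show no binding.

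RNA was measured by 3′ end sequencing, where each polyadenylated transcript is read next to its tail, so a gene's count does not grow with transcript length and levels of different genes can be set side by side. The counts of a library summed to between 1790841 and 3656662. Levels are CPM, counts scaled to a common library size after TMM scaling over all 12 libraries, written as mean ± SD of 3 libraries, and fold changes come from edgeR fits within 1 line. The floor of the measurement was set at 3 counts, which corresponded to at most 1.87 and 1.80 CPM in control and HME-treated HepG2 libraries and to at most 1.48 and 1.09 CPM in those of Ls174 cells. The 14 hepatocyte markers summed to between 23610 and 36060 CPM in HepG2 libraries and to at most 211 CPM in Ls174 libraries. The 12 colon epithelium markers summed to between 726.5 and 1080 CPM in Ls174 and to at most 399 CPM in HepG2 libraries. EPCAM had the highest mean of them in Ls174 controls, 534.6 CPM, against 132.2 CPM in HepG2 controls. KRT20 had no count in the Ls174 controls, where CEACAM5, MUC2 and GUCY2C had means of 2.92, 1.15 and 0.895 CPM. The mean of VIL1 was lower in Ls174 than in HepG2 controls, at 62.8 against 136.4 CPM, in ranges that overlap. The hepatocyte and colon sums were lower with HME in their own line. They stood at 23610 to 25540 against 32480 to 36060 CPM in HepG2 and at 726.5 to 776.3 against 850.8 to 1080 CPM in Ls174 cells. Single members differed in sign. APOA2 and FGB had log2 changes of 0.21 and 0.16 in HepG2 cells, and every other hepatocyte marker had one below 0. In Ls174 cells CEACAM5, LGALS4 and TFF3 had 0.21, 0.56 and 0.33, and the other tested colon markers were below 0. EPCAM stood at a mean of 343.4 CPM in Ls174 HME libraries against 534.6 in Ls174 controls. The part of these markers in the S100 values was not tested. Of the 12 blood markers, PTPRC, CD3E, MS4A1 and HLA-DRA had no count in any library. The list still summed to between 225.5 and 735.5 CPM in HepG2 libraries, in ranges that overlap between control and HME. LYZ and CD74 stood highest in it, at 90.95 to 551.6 and 107.6 to 170.5 CPM in HepG2 libraries, and CD68 reached 21.8 CPM. The 12 mesenchymal markers summed to between 1079 and 1554 CPM in HepG2 control and between 827.6 and 2339 CPM in HepG2 HME libraries, with DCN at 0, and to at most 29.0 CPM in Ls174 libraries. HepG2 HME 2 stood apart in some of them, with 551.5 CPM of COL1A1, 407.6 of COL1A2 and 60.8 of VIM. No other HepG2 library exceeded 6.06, 3.23 and 1.87 CPM of these. SPARC was also highest there, at 118.8 CPM. In the same library LUM had no count, and THY1, COL3A1 and POSTN stood at only 0.707, 1.77 and 3.54 CPM. ACTA2, TAGLN and FN1, at 92.6, 111.0 and 990.9 CPM, lay within the range of the HepG2 controls. TAGLN was nevertheless far higher there than in HepG2 HME 1 and 3, at 12.7 and 17.4 CPM. The part of these transcripts in the values below was not tested. All 9 S100 genes passed edgeR's filter on low counts in every main fit, which left no library out. S100A14 did not pass it in HepG2 cells when HME 2 was left out. In a bulk sample, a lower level can mean fewer cells that express a gene or less RNA in each cell, and these cannot be told apart.

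Nearly all counts of each S100 gene came from 1 region at the end of its transcripts. For S100P (ENSG00000163993) this was chr4:6698770-6699094 on the plus strand of GRCh37, of which 128 bases lie in untranslated exon and 197 lie past the annotated gene end at 6698897. The regions of the other 8 genes lie on the minus strand of chromosome 1, from chr1:151955194-151955707 for S100A10 and chr1:152004785-152005137 for S100A11 to the group between S100A6 (chr1:153506878-153507189) and S100A13 (chr1:153591066-153591370). All 9 regions extend 197 bases past the annotated end, none overlaps a region of another gene, and the listed region held 99.94% of the counts of S100A6, 99.96% of those of S100A10 and all counts of the other 7. Reads of S100A11 may also align to its pseudogenes, and how the authors treated reads with several alignments is not given in the sources used here.

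S100P, a secreted ligand of RAGE that also activates ezrin inside the cell, was more than 3-fold higher with HME in both lines. In HepG2 control libraries 1, 2 and 3 it stood at 177.2, 165.7 and 265.5 CPM (202.8 ± 54.6), and in HepG2 HME libraries at 815.1, 559.6 and 602.4 CPM (659 ± 137). In Ls174 controls it stood at 302.9, 355.4 and 348.7 CPM (335.7 ± 28.6), and in Ls174 HME libraries at 1177, 1223 and 1015 CPM (1138 ± 109). Every HME library was above every control library of its line, and the lowest HepG2 HME library was also above the highest Ls174 control library. The fold change was 3.29 in HepG2 cells (log2 1.72, SE 0.33) and 3.38 in Ls174 cells (log2 1.76, SE 0.20). The difference between these log2 changes, Ls174 minus HepG2, was 0.06 with an SE of 0.39, an uncertainty that leaves room for unequal responses. Leaving out any 1 library kept the log2 change between 1.56 and 1.94 in HepG2 and between 1.70 and 1.84 in Ls174 cells.

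**Figure D1:**
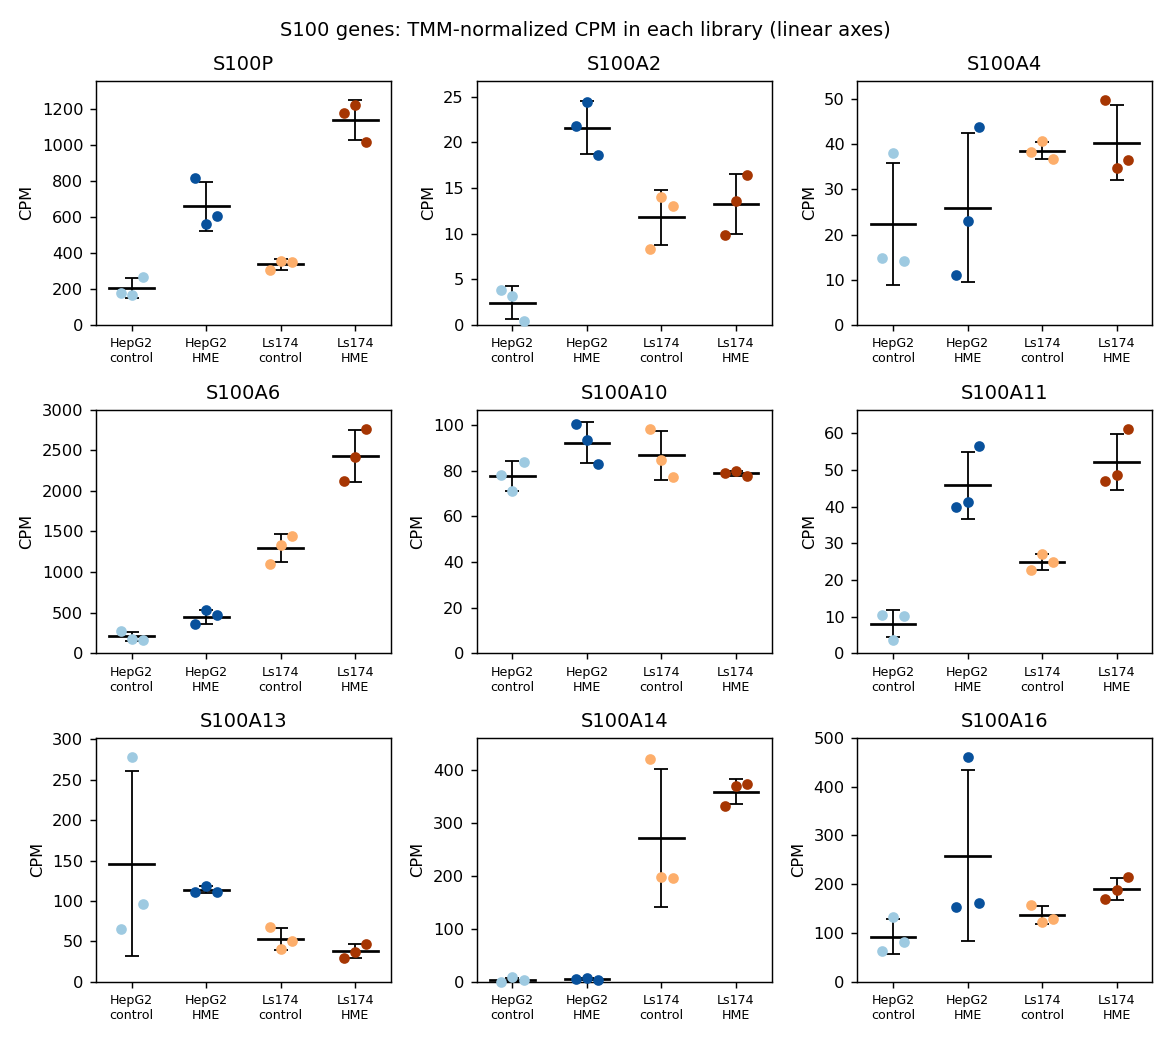
TMM-normalized CPM (vertical axes, linear, from 0, each gene on its own scale) of the 9 S100 genes in HepG2 control, HepG2 HME, Ls174 control and Ls174 HME libraries. Points are libraries in the order of replicates 1 to 3, long bars are means and error bars are SDs; S100P stands between 559.6 and 815.1 in HepG2 HME and between 165.7 and 265.5 in HepG2 control libraries.

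S100A6 (calcyclin), which binds the calcyclin-binding protein CACYBP and several annexins, and S100A11 (calgizzarin), a partner of annexin A1, were also higher with HME in both lines. S100A6 stood at 272.9, 178.8 and 169.3 CPM in HepG2 controls (207.0 ± 57.3) and at 360.1, 528.1 and 466.0 CPM in HepG2 HME libraries (451.4 ± 85.0). In Ls174 controls it stood at 1104, 1330 and 1443 CPM (1292 ± 173) and in Ls174 HME libraries at 2120, 2421 and 2756 CPM (2432 ± 318). The groups of each line did not overlap, and every Ls174 library lay above every HepG2 library. The S100A6 fold change was 2.20 in HepG2 (log2 1.14, SE 0.33) and 1.88 in Ls174 cells (log2 0.91, SE 0.22).

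S100A11 was the gene with the larger relative change of the pair and the smaller level. It stood at 10.5, 3.74 and 10.1 CPM in HepG2 controls (8.11 ± 3.79) and at 40.0, 41.4 and 56.5 CPM in HepG2 HME libraries (45.9 ± 9.14). In Ls174 controls it stood at 22.6, 27.0 and 24.8 CPM (24.8 ± 2.19) and in Ls174 HME libraries at 47.0, 48.7 and 61.1 CPM (52.3 ± 7.70). The HME libraries of the lines overlapped each other in S100A11, whereas the control libraries did not. The fold change was 5.55 in HepG2 (log2 2.47, SE 0.40) and 2.09 in Ls174 cells (log2 1.07, SE 0.21), a difference of -1.37 on the log2 scale (SE 0.47).

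S100A2, an epithelial S100 protein that can bind p53 and is known as a target gene of the p53 family, stood far apart between HME and control libraries in HepG2 cells and overlapped in Ls174 cells. It stood at 3.76, 3.12 and 0.404 CPM in HepG2 controls (2.43 ± 1.78) and at 21.8, 24.4 and 18.6 CPM in HepG2 HME libraries (21.6 ± 2.89). In Ls174 cells it stood at 8.36, 13.97 and 13.06 CPM in controls (11.8 ± 3.01) and at 9.84, 13.5 and 16.4 CPM in HME libraries (13.3 ± 3.30). The HepG2 control values rest on 14, 5 and 1 counts, the last of them under the floor of 3 counts. The HepG2 fold change of S100A2 was 8.70 (log2 3.12, SE 0.57), and it moved to a log2 change of 3.74 without control 1 and 2.62 without control 3. The Ls174 log2 change was 0.15 (SE 0.34), and it lay on the other side of 0 without control 1 (-0.01) or HME 3 (-0.02). The difference between the S100A2 responses, Ls174 minus HepG2, was -2.95 on the log2 scale (SE 0.68), the largest of the 9 in size.

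S100A16, a widely expressed S100 protein that can pair with S100A14, was higher in every HME library than in the controls of its line, and stood far above the rest in 1 of them. It stood at 62.4, 132.1 and 81.6 CPM in HepG2 controls (92.0 ± 36.0) and at 152.3, 460.6 and 161.6 CPM in HepG2 HME libraries (258.2 ± 175). The highest value belongs to HepG2 HME 2, the library with high COL1A1, COL1A2 and VIM. The S100A16 fold change was 2.79 (log2 1.48, SE 0.51) with all libraries and 1.72 (log2 0.78, SE 0.45) without HepG2 HME 2. In Ls174 cells S100A16 stood at 158.4, 123.5 and 128.5 CPM in controls (136.8 ± 18.8) and at 169.4, 188.8 and 214.6 CPM in HME libraries (190.9 ± 22.7). The Ls174 groups did not overlap, and the log2 change was 0.47 (SE 0.20).

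S100A10, S100A4, S100A13 and S100A14 overlapped between HME and control libraries in both lines. S100A10 (p11), the calcium-insensitive subunit that joins annexin A2 in a tetramer at the plasma membrane, was the steadiest, with 78.3, 71.0 and 84.1 CPM in HepG2 controls (77.8 ± 6.54) and 100.5, 93.7 and 82.9 CPM in HepG2 HME libraries (92.4 ± 8.89). In Ls174 cells S100A10 stood at 98.4, 84.7 and 77.1 CPM without HME (86.7 ± 10.8) and at 79.1, 80.0 and 77.9 CPM with it (79.0 ± 1.07). The log2 change of S100A10 was 0.26 (SE 0.28) in HepG2 and -0.14 (SE 0.19) in Ls174 cells. S100A4 (metastasin), which binds non-muscle myosin, varied as much within HepG2 groups as between them.

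S100A4 stood at 14.8, 38.0 and 14.1 CPM in HepG2 controls (22.3 ± 13.6) and at 11.1, 23.0 and 43.8 CPM in HepG2 HME libraries (26.0 ± 16.6). Its HepG2 log2 change was 0.22 (SE 0.58) and changed to -0.37 when HME 3 was left out and to 0.88 when control 2 was. In Ls174 cells S100A4 stood at 38.4, 40.7 and 36.9 CPM in controls (38.6 ± 1.91) and at 49.9, 34.9 and 36.5 CPM in HME libraries (40.4 ± 8.27), with a log2 change of 0.06 (SE 0.22).

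S100A13, which takes part in the release of FGF1 from cells, was high in 1 HepG2 control library. It stood at 64.8, 277.8 and 96.2 CPM in HepG2 controls (146.3 ± 115) and at 110.8, 119.1 and 111.7 CPM in HepG2 HME libraries (113.9 ± 4.57). The HepG2 log2 change of S100A13 was -0.38 (SE 0.52) with all libraries and 0.57 without control 2. In Ls174 cells S100A13 stood at 67.9, 40.0 and 51.0 CPM in controls (52.95 ± 14.02) and at 29.9, 36.3 and 47.0 CPM in HME libraries (37.7 ± 8.65), with a log2 change of -0.49 (SE 0.28). It was the sole gene of the 9 with a negative change in both lines, and the sign in HepG2 cells rested on 1 library.

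S100A14, an epithelial S100 protein and RAGE ligand, was near the floor in HepG2 and abundant in Ls174 cells. It stood at 0.269, 8.10 and 3.23 CPM in HepG2 controls (3.87 ± 3.95) and at 4.35, 6.36 and 3.00 CPM in HepG2 HME libraries (4.57 ± 1.69). In Ls174 controls S100A14 stood at 421.5, 197.7 and 195.1 CPM (271.4 ± 130) and in Ls174 HME libraries at 332.6, 370.5 and 373.9 CPM (359.0 ± 22.9). Ls174 control 1 lay above all 3 HME libraries, and the other Ls174 controls lay below them. The Ls174 log2 change of S100A14 was 0.39 (SE 0.32) with all libraries and 0.88 without control 1.

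**Figure D2:**
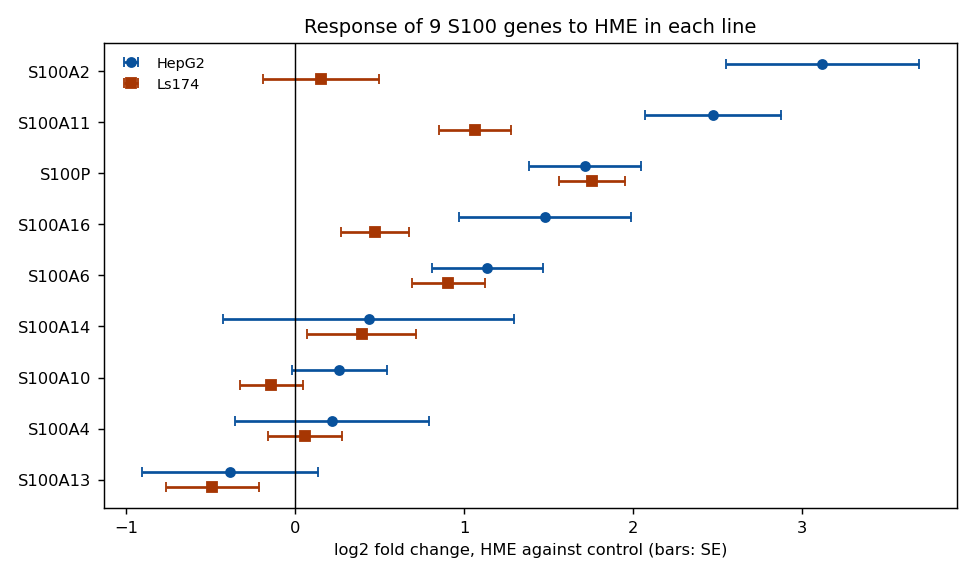
Log2 fold change of HME against control (horizontal axis) for the 9 S100 genes in HepG2 (circles) and Ls174 cells (squares), ordered by the HepG2 value; bars are SEs and the vertical line marks no change. S100A2 has the largest HepG2 value, 3.12, with 0.15 in Ls174 cells, while S100P has 1.72 and 1.76.

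Over the 9 genes, 8 had a log2 change above 0 in HepG2 and 7 in Ls174 cells. The median log2 change of the 9 was 1.14 in HepG2 cells, where that of all 11343 tested genes was -0.04, and 0.39 in Ls174 cells, where that of all 11319 tested genes was -0.00287. HME and control libraries did not overlap, with HME higher, for 5 of the 9 in HepG2 (S100P, S100A2, S100A6, S100A11 and S100A16), and this held for 15.5% of all genes tested there. In Ls174 cells it held for 4 of the 9 (S100P, S100A6, S100A11 and S100A16) and for 11.6% of all genes. At an adjusted p under 0.05 in edgeR, 3 of the 9 were called in HepG2 (S100P, S100A2 and S100A11), against 3.31% of all genes, and 1 in Ls174 cells (S100P), against 1.18%. DESeq2 called 4 in HepG2, adding S100A6, with 9.14% of all genes, and 3 in Ls174 (S100P, S100A6 and S100A11), with 4.11%. At the study's thresholds, an unadjusted p under 0.05 and a log2 change beyond 0.58, the counts were 5 in HepG2 and 3 in Ls174 cells, against 22.2% and 12% of all genes. Since the genes were selected on these contrasts, nothing is read from these counts. They also moved with single libraries. S100P was no longer called in HepG2 cells when any library other than control 2 was left out, nor in Ls174 cells when any library other than control 1 was left out. Leaving out 1 library gave between 0 (without HME 3) and 4 of the 9 (without control 2) in HepG2 cells. Calls among all genes in the same fits were 95 of 11987 and 921 of 11899. In Ls174 cells 5 were called without control 1, with 979 of all 11673 genes. When any 1 of the other Ls174 libraries was left out, 0 were called, and between 0 and 10 among all genes. In HepG2 cells S100A11 was no longer called without HME 3, and S100A2 was no longer called when any 1 of the 3 HME libraries was left out.

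For the difference between the responses of the lines, 8 of the 9 estimates were negative, that is, smaller in Ls174 than in HepG2 cells, and S100P had the positive one. The median was -0.21 on the log2 scale, where that of all 13040 tested genes was 0.04. edgeR called 0 of the 9 at an adjusted p under 0.05, with 0.644% of all genes called, and 2 (S100A2 and S100A11) at an unadjusted p under 0.05, with 13.2% of all genes. DESeq2 called 1 (S100A2), with 3.25% of all genes. edgeR also called 1 when Ls174 control 1 was left out. The 9 genes were selected on the responses that are compared here, so nothing is read from these counts either.

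The comparison of untreated lines uses the same control libraries as the responses above, so the values are set side by side only. The 9 genes were selected with this contrast in view too, and nothing is read from its calls. In untreated cells, 4 of the 9 genes were called higher in Ls174 than in HepG2 cells at an adjusted p under 0.05 (S100A2, S100A6, S100A11 and S100A14), where 23.5% of all 11907 tested genes were called in either direction. The median log2 difference of the 9, Ls174 minus HepG2, was 0.76, where that of all tested genes was -0.04. S100A14 differed most, by 75.8-fold (log2 6.24, SE 0.91), and its log2 difference was 5.55 without HepG2 control 1 and 7.39 without HepG2 control 2. S100A6 was 6.11-fold higher in Ls174 cells (log2 2.61, SE 0.37). The log2 difference was 2.22 (SE 0.70) for S100A2, 1.55 (SE 0.45) for S100A11 and 0.70 (SE 0.33) for S100P, which was not among the called genes although its untreated groups did not overlap. S100A13 was the gene with a lower value in Ls174 cells (log2 -1.53, SE 0.57), which came to -0.63 without HepG2 control 2. With 1 library left out, S100A14 and S100A6 were called in each of the 6 fits, S100A11 only without HepG2 control 2 or Ls174 control 1, and S100A2 only without Ls174 control 1. S100A13 was called, as lower in Ls174 cells, without HepG2 control 1, and S100A4, as higher, without HepG2 control 2.

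The order of the levels differed between the lines. In HepG2 controls S100A6, S100P, S100A13, S100A16 and S100A10 led, and each of them overlapped its neighbour in that order, followed by S100A4, S100A11, S100A14 and S100A2. In HepG2 HME libraries S100P led, with no overlap with S100A6, while S100A6 and S100A16 overlapped. In Ls174 controls S100A6 led with no overlap, S100P overlapped S100A14, and S100A2 was last. In Ls174 HME libraries S100A6 led S100P, and S100P led S100A14, without overlap. S100A14, near the bottom in HepG2 cells, was therefore among the leading 3 in Ls174 cells.

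Summed over the 9 genes, the level was 762.6 ± 102 CPM in HepG2 control (684.9, 878.3 and 724.6), 1673 ± 163 in HepG2 HME (1616, 1856 and 1546), 2251 ± 58.2 in Ls174 control (2222, 2213 and 2318) and 4343 ± 298 in Ls174 HME libraries (4015, 4416 and 4598). The HME and control sums of a line did not overlap. S100A6 made up 27.9 ± 10.5% of the sum in HepG2 controls and 27.0 ± 4.14% in HepG2 HME libraries, and 57.3 ± 6.72% and 55.9 ± 3.67% in the Ls174 groups. S100P made up 27.1 ± 8.95% and 39.9 ± 10.2% in HepG2 and 14.9 ± 1.22% and 26.4 ± 3.79% in Ls174 cells, so its mean share was higher with HME in both lines.

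**Figure D3:**
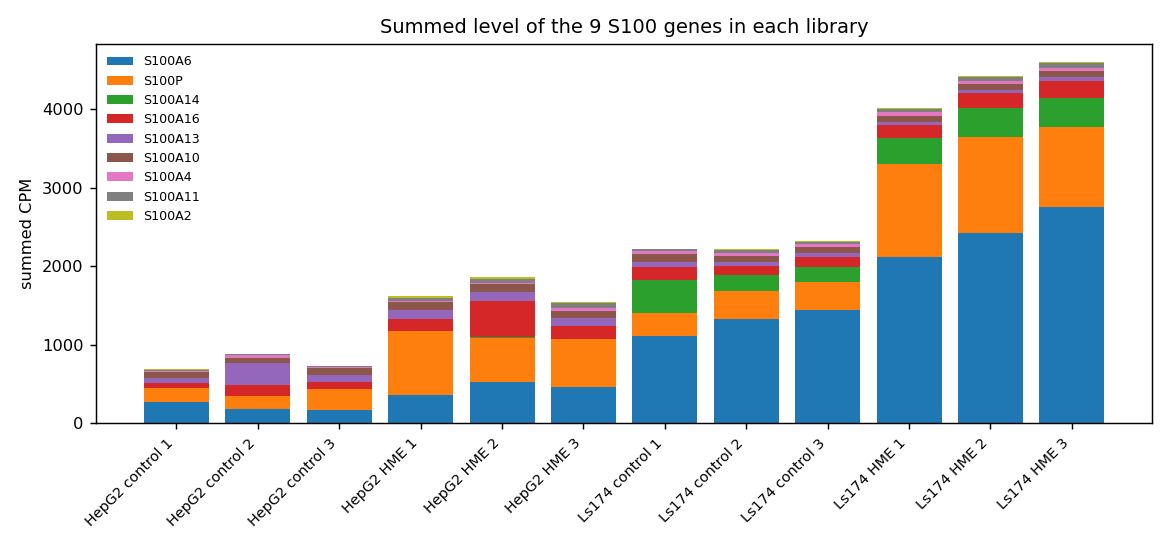
Summed TMM-normalized CPM of the 9 S100 genes (vertical axis, from 0) in each of the 12 libraries, with 1 coloured segment per gene. The sum stands between 684.9 and 878.3 in HepG2 controls and between 4015 and 4598 in Ls174 HME libraries, and S100A6 is the widest segment in every Ls174 library, followed by S100P except in Ls174 control 1, where S100A14 follows.

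Among 9870 genes ranked by their likeness to S100P (Pearson r of log2 CPM centred within each line, over 12 libraries that all share the difference between HME and control), the 5 closest were PLIN2, SQSTM1, TALDO1, NQO1 and IL8. PLIN2, which coats lipid droplets, had r = 0.984 and log2 changes of 2.80 in HepG2 and 2.81 in Ls174 cells. SQSTM1, the autophagy receptor p62, had r = 0.972 with log2 changes of 2.11 and 1.69. The transaldolase TALDO1 had r = 0.962 with 0.73 and 0.75, the quinone reductase NQO1 r = 0.951 with 0.93 and 0.93, and the chemokine IL8 r = 0.945 with 4.22 and 2.97. Of the other S100 genes, S100A11 (r = 0.865) stood at place 63 and S100A6 (r = 0.840) at place 112. S100A2 (r = 0.589) and S100A16 (r = 0.582) stood at places 1271 and 1319, and S100A14, S100A10, S100A4 and S100A13 followed with r between 0.333 and -0.352. These values describe the libraries and carry no test.

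Of the other 12 S100 genes in the tables, 6 had no count in any library, S100A8, S100A12 and S100B among them, and 4 had between 1 and 3 counts over all 12 libraries (S100A5, S100A7, S100A9 and S100Z). S100A3 had 37 counts in all and was not tested. S100A1, a regulator of calcium handling in muscle, was the remaining one and was present in HepG2 cells alone, at 25.8, 71.0 and 45.3 CPM in controls (47.4 ± 22.7) and 24.9, 18.4 and 16.8 CPM in HME libraries (20.0 ± 4.30). S100A1 was lower in all 3 HME libraries than in all 3 controls, with a log2 change of -1.23 (SE 0.43), which did not pass (adjusted p = 0.138, edgeR). It had 0 counts in each of the 6 Ls174 libraries. Its mean in HepG2 controls was 32.1 times the highest floor of the Ls174 controls, 1.48 CPM at 3 counts, with single HepG2 controls from 25.8 to 71.0 CPM. The untreated lines differed in S100A1 (adjusted p = 0.00049, edgeR).

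Genes of S100 partners and of related calcium sensors were not used to choose the 9, and edgeR called none of them at an adjusted p under 0.05 within a line, although DESeq2 called 4 of the EF-hand genes in Ls174 cells. Of 16 partner genes, 10 were tested in HepG2 and 11 in Ls174 cells, and 0 passed an adjusted p of 0.05 in edgeR or in DESeq2. At an unadjusted p under 0.05, edgeR gave 2 in HepG2 (ANXA2 and PPFIBP1) and 3 in Ls174 cells (AHNAK, ANXA1 and IQGAP1), where 22.2% and 13.6% of all genes in these lines were under that level. The median log2 change of the tested partners was -0.08 in HepG2 and 0.18 in Ls174 cells. The difference of responses between the lines gave 0 of 12 tested partners at an adjusted p under 0.05 and 4 (ANXA1, ANXA2, ANXA11 and IQGAP1) at an unadjusted p under 0.05, where 13.2% of all genes were under it.

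ANXA2, the annexin that binds S100A10, stood high in a single library. It stood at 48.7, 51.7 and 100.6 CPM in HepG2 controls and at 86.3, 2115 and 54.1 CPM in HepG2 HME libraries, the high value again in HepG2 HME 2. The log2 change of ANXA2 was 3.50 (SE 1.20, adjusted p = 0.134) with that library and 0.11 (adjusted p = 0.926) without it. In Ls174 cells ANXA2 stood at 272.4, 252.7 and 197.1 CPM in controls and 255.4, 289.8 and 277.3 CPM in HME libraries (log2 0.18, SE 0.20, adjusted p = 0.724). ANXA2 is also in a gene table of the study's own, so it is not independent of the study's choice. Between untreated lines, 2 of 10 tested partners were called, ANXA2 higher in Ls174 cells (log2 1.81, SE 0.39, adjusted p = 0.00818) and ANXA6 lower.

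ANXA1, the annexin bound by S100A11, stood at no more than 0.623 CPM in HepG2 libraries, under the floor. In Ls174 cells it stood at 2.46, 7.14 and 4.35 CPM in controls (4.65 ± 2.36) and at 10.9, 16.4 and 13.8 CPM in HME libraries (13.7 ± 2.72). The Ls174 groups of ANXA1 did not overlap, but the log2 change of 1.52 (SE 0.44) did not pass (adjusted p = 0.182), with an adjusted p of 0.0322 without Ls174 control 1 and between 0.224 and 0.658 with any other 1 library left out. EZR, which codes for the membrane linker ezrin that S100P activates, stood at 170.5 ± 48.2 and 181.9 ± 13.5 CPM in HepG2 control and HME libraries (log2 0.09, SE 0.33, adjusted p = 0.894). In Ls174 cells EZR stood at 368.7 ± 50.6 and 331.7 ± 35.4 CPM (log2 -0.16, SE 0.20, adjusted p = 0.751). AGER, which codes for the receptor RAGE, reached at most 4 counts in any library and was not tested.

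**Figure D4:**
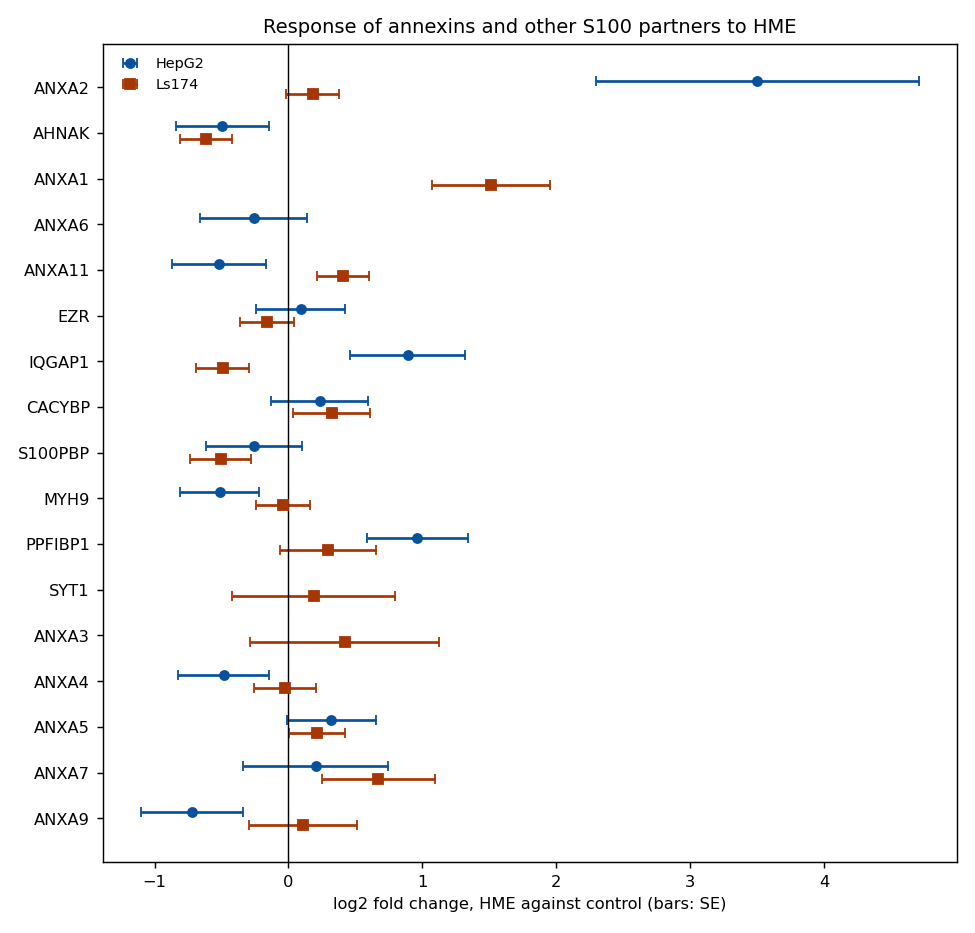
Log2 fold change of HME against control (horizontal axis) for the tested annexins and other S100 partners in HepG2 (circles) and Ls174 cells (squares); bars are SEs, the vertical line marks no change and a missing symbol means that the gene was not tested in that line. ANXA2 in HepG2 cells has the widest bar, at 3.50 ± 1.20 (SE).

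Among the 13 annexin genes, 7 were tested in HepG2 and 8 in Ls174 cells, and 0 were called in either line by edgeR or DESeq2; at an unadjusted p under 0.05, edgeR gave 1 in HepG2 (ANXA2) and 1 in Ls174 cells (ANXA1), against 22.2% and 13.6% of all genes. Among 18 other EF-hand genes, 17 and 18 were tested and edgeR called 0 in both lines. At an unadjusted p under 0.05 it gave 2 in HepG2 (EFHD2 and RCN2, both lower) and 5 in Ls174 cells (CALM3, CALU, NUCB1, RCN1 and RCN2, all lower), against the same shares of all genes. DESeq2 called 0 in HepG2 and 4 in Ls174 cells (CALU, NUCB1, RCN1 and RCN2), against 9.14% and 4.11% of all genes. CALU, NUCB1, RCN1 and RCN2 code for calcium-binding proteins of the secretory pathway. The median log2 change of the tested EF-hand genes was -0.09 in HepG2 and 0.03 in Ls174 cells.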

How the data were processed

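RNA was measured by 3′ end sequencing in 12 libraries, 3 for each of 4 groups. The authors prepared the libraries with the QuantSeq kit for Ion Torrent, aligned reads to hg19 (GRCh37) with Hisat2 and used metaseqR2 on the alignments. The deposited values are raw whole-number counts per 3′ region (144910 regions), made by the authors without normalization, and were added up here over the regions of each gene. The submitters' processing notes also name Bowtie2 and Trimmomatic, with no role stated. Tool versions and the treatment of strand and of multiple alignments are not given in the sources used here.

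Tests used edgeR 4.0.16 (TMM, filterByExpr, quasi-likelihood F test, two-sided, Benjamini-Hochberg over all tested genes) in R 4.3.3, within each line (6 libraries, no covariate), between untreated lines, and for the interaction (12 libraries), and SEs were derived from the F statistic. The procedure was tested on simulated counts in which 200 genes were changed by 2 on the log2 scale. It found 53.5% of them in HepG2, 74.0% in Ls174 cells, 20.5% between untreated lines and 8.0% in the interaction. A gene without a call can therefore still have changed. Alternatives were DESeq2 1.42.0, a binomial test on counts summed within each group, and other scalings and filters. Further ones were 1 fit of all 12 libraries, the largest region only, the replicate number as a block, and leaving out each library. The study's methods name a binomial test but do not say that counts were summed for it, so summing was a choice made here. Figures were drawn with matplotlib 3.10.9, and tables were made with pandas 2.3.3 and numpy 2.4.6 in Python 3.11.15.

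The 9 genes and all lists were chosen with earlier results of these data known. The text names the 9 genes, tested S100 genes outside them, ANXA2, ANXA1, EZR and AGER, any partner, annexin or EF-hand gene that edgeR called within a line or in the interaction (there was none), and the 5 genes most like S100P, for which a prior count of 2 was added before log2. Any further gene of the 16 partners, 13 annexins and 18 EF-hand genes in the text was picked with its values in view. Markers of endothelial cells summed to at most 7.91 CPM in a library. The floor of 3 counts covers counting error only, since reads carry no molecular identifiers. Enrichment of terms, quantitative PCR and the proteome were not analysed here.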

Additional observations from a re-analysis of the deposited data

Results flagged for a closer look

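EFHD2, which codes for an EF-hand protein of the actin cytoskeleton, had log2 changes of opposite sign in the lines, and neither passed in edgeR. It stood at 15.9, 18.7 and 17.0 CPM in HepG2 controls and at 7.52, 7.07 and 11.4 CPM in HepG2 HME libraries (log2 -0.99, SE 0.37, adjusted p = 0.162). In Ls174 cells EFHD2 stood at 24.1, 20.5 and 28.7 CPM in controls and 32.4, 36.3 and 35.5 CPM in HME libraries (log2 0.50, SE 0.23, adjusted p = 0.386). All 3 HME libraries lay below all controls in HepG2 and above them in Ls174 cells. HME was higher without overlap for 11.6% of all genes tested in Ls174 cells, and the share lower without overlap in HepG2 cells is not given here. The difference of the log2 changes, Ls174 minus HepG2, was 1.51 (SE 0.42), which did not pass in edgeR (adjusted p = 0.131) and passed in DESeq2 (adjusted p = 0.0250). Over the leave-one-out fits its adjusted p in edgeR lay between 0.105 and 0.319.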

How the results depend on the processing

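Counts of the 9 S100 genes depended on the setting. In HepG2 cells 3 were called, with 375 of all 11343 tested genes. The binomial test, which has no term for replicate spread, called 6, with 7556 of 11343 genes. In 1 fit of all 12 libraries 5 were called, with 807 of 13040 genes. With at least 10 counts in every library, a filter that removes S100A2 and S100A11, 1 was called, with 188 of 8394 genes. The leave-one-out fits called 0 to 4, with 95 to 921 of all genes, the most without HepG2 control 2. In Ls174 cells 1 was called, with 134 of all 11319 tested genes. The binomial test called 6, with 5529 of 11319 genes, and DESeq2 3, with 4.11% of all genes. With every gene of at least 1 count 3 were called, with 604 of 22568 genes. Leave-one-out fits called 0 to 5, with 0 to 979 of all genes, the most without Ls174 control 1. Among the controls of their line, HepG2 control 2 and Ls174 control 1 also had the highest S100A13 and S100A14. Between untreated lines 4 were called, against 9 (binomial), 1 (10 counts) and 2 to 4 (leave-one-out). In the interaction 0 were called, against 1 with DESeq2, 1 with every gene, and 0 to 1 in leave-one-out fits. Partners and annexins gave 0 in each line. The binomial test gave 9 and 5 in HepG2 and 8 and 4 in Ls174 cells, beside its calls among all genes given above. With every gene of at least 1 count they gave 1 and 1 in HepG2 cells, with 1407 of 24458 genes. Ls174 leave-one-out fits gave 0 to 1 each. ANXA2 in HepG2 and ANXA1 in Ls174 cells count under both lists. The cause was not tested where no construction is named.

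S100P kept its direction under all settings, at log2 1.56 to 1.94 (HepG2) and 1.70 to 1.84 (Ls174) over leave-one-out fits, most of which no longer passed. In HepG2 cells leave-one-out fits turned the sign of S100A4 (-0.37 to 0.88), S100A13 (-0.75 to 0.57) and S100A14 (-0.25 to 1.63). S100A14 was tested in 5 of these HepG2 fits, all but the one without HME 2. In Ls174 cells they turned the sign of S100A2 (-0.0215 to 0.33) and S100A4 (-0.12 to 0.16). The replicate numbers did not pair the libraries. Deviations of same-numbered libraries correlated at -0.167, 0.0884 and -0.124 in HepG2 and -0.0363, -0.00777 and -0.0541 in Ls174 cells. Same-numbered controls of the lines gave -0.406, -0.341 and 0.126. HepG2 control 1 correlated at 0.35 and 0.347 with Ls174 controls 2 and 3. HepG2 control 2 gave 0.376 and -0.306 with Ls174 controls 1 and 3. HepG2 control 3 gave -0.175 and 0.177 with Ls174 controls 1 and 2. The study describes a deviating control replicate in both lines and does not number it in its text. Which library this was in each line was not tested. With the replicate number as a block, 0 of the 9 were called in Ls174 cells (S100P at log2 1.75), with 0 of all 11319 tested genes. The block gave 2 between untreated lines, and no other of these counts moved by over 1.5 times. The binomial test was not run for the interaction. With 3 libraries a group and 1790841 counts in the smallest, genes near the floor, such as S100A2 and S100A14 in HepG2 cells, have wide errors.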
